A study of Mus musculus with 22 samples.

Results

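YAP1on tumors were hepatoblastomas, embryonal-type liver tumors, taken from a mouse in which YAP1 was switched on, and they were compared here with non-tumor liver. The 4 tumors and 3 livers were chosen by their labels alone and make up 7 of the 22 samples of the series, 17 of which are RNA libraries. The tumors carried Tg(CAG-rtTA3)4288Slowe, an rtTA3 transgene driven by the broadly active CAG promoter, on the strain background labelled B6N.FVB(Cg), and the animal received doxycycline, the drug that lets rtTA activate its target genes. The livers came from 3 mice with the Fah allele FAH Delta Exon 5 that were kept on NTBC, a drug that blocks tyrosine breakdown upstream of the missing FAH enzyme and so keeps such animals healthy. All 4 tumors carry the code of 1 mouse, so their spread is one between tumors of that animal, not between mice. The limma p-values below use a spread shared by 14 samples in 4 groups. Besides these 7 samples, the fit held tumors taken 6 days after YAP1 was switched off and liver samples labelled hbHep. Genotype, drug and tissue differed together between the YAP1on tumors and the livers and cannot be told apart. Age and sex are not given for either group, and the labels do not name the YAP1 transgene or any other tumor driver. The liver labels give the tissue as liver, the cell type as hepatocyte and the source as WT beside the Fah allele, and markers of endothelial, Kupffer and stellate cells were all detected in these samples. Total RNA of fresh or flash frozen tissue was sequenced.

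YAP1 is a transcriptional coactivator that the Hippo kinases MST and LATS hold in the cytoplasm. When it is not phosphorylated it enters the nucleus, binds TEAD factors and turns on genes of growth, cytoskeleton and cell survival. In adult hepatocytes its activity is low, and forced activity drives liver overgrowth, loss of hepatocyte identity and duct-like features. Hepatoblastomas commonly pair active YAP1 with activated beta-catenin, the effector of Wnt signalling.

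The values were deposited as scaled reads per base of transcript and are called abundance below, after rescaling of the libraries to each other. Summed signal per library was 15.99 M to 19.18 M in the tumors and 31.07 M to 42.12 M in the livers, and the rescaling factors lay between 0.9608 and 1.095. The value of 1 read in low genes placed the tumor libraries at 1.892 to 2.77 times the depth of the first liver library, and the livers at 0.9075 to 1 times. Log2 abundances correlated at 0.9784 to 0.9849 in the 6 tumor pairs, at 0.9695 to 0.9723 in the 3 liver pairs and at 0.8024 to 0.8244 in the 12 pairs across groups. Mitochondrial genes made up 5.266 to 9.11% of the tumor signal and 3.562 to 3.842% of the liver signal. Liver replicate 2 stood apart among low genes, with 25605 genes above 0. In that library the repeat-like gene model Gm10800 reached 2565895, against 35106 and 1114 in the other livers and 4.66 to 33.2 in the tumors.

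Of 17958 genes tested with limma and Benjamini-Hochberg adjustment, 6222 (34.6%) rose in the tumors and 5987 (33.3%) fell at an adjusted p under 0.05. Among these, 4219 (23.5%) rose and 3320 (18.5%) fell by at least 2-fold on the log2(abundance + 1) scale, on which all folds below are given. The median log2 fold change over all tested genes was 0.05 and the median absolute value was 0.84. With the tumors of the mouse averaged into 1 sample, 3289 genes rose and 3688 fell. In that fit 66 of the 376 genes named by rule lost their call. Among those described below they were Hnf4a, Pklr, Slc2a1, Slc2a2, Arg2, Amotl1, Vgll4, Igfbp3, Csnk1a1, Dkk4, Notum, Cyp2e1, Hamp, Hamp2, Sult1e1, Onecut2, Ggt1, Aqp1, Tk1, Pck1, mt-Co2, mt-Co3, Igtp, Apob, Kdr, Dbp, Arntl, Npas2 and Apoa4. Counts for the gene groups below are read against these background shares. The group medians are descriptions and were not tested.

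Yap1 itself was at 5309, 9790, 7872 and 10806 in tumors 1 to 4 and at 1301, 1142 and 1353 in the 3 livers. It rose by a log2 fold change of 2.69 ± 0.19 (SE), which is 6.46-fold (limma, adjusted p = 1.08e-08). Every tumor lay above every liver, and the exact two-sided permutation test gave p = 0.0286, the smallest p that 35 splits allow. A gene-level value does not separate a YAP1 transgene from the mouse gene.

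Ctnnb1, which encodes beta-catenin, was at 8750, 13761, 11104 and 12134 in the tumors and at 2763, 2432 and 2561 in the livers, 4.37-fold higher (log2 fold change 2.13 ± 0.15, limma adjusted p = 6.77e-09, exact permutation p = 0.0286). Its groups did not overlap. Fah stood at 1470, 2275, 2416 and 2226 in the tumors and at 1825, 1574 and 1544 in the livers, so the groups overlapped (log2 fold change 0.33 ± 0.19, limma adjusted p = 0.14, exact permutation p = 0.2). A value for the whole gene does not resolve the deleted exon and so checks nothing about the FAH label.

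**Figure D1:**
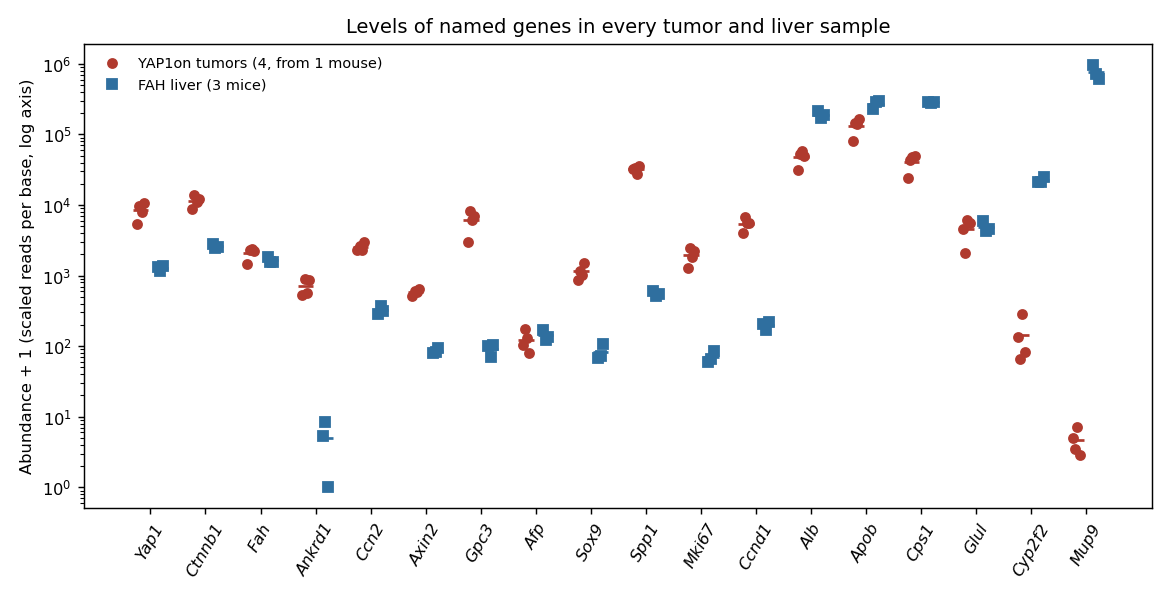
Abundance plus 1 on a log axis for 18 genes in each of the 4 YAP1on tumors (circles) and 3 FAH livers (squares), with short bars at the group means. Yap1, Ctnnb1, Ankrd1, Ccn2, Axin2, Gpc3, Sox9, Spp1, Mki67 and Ccnd1 lie higher in every tumor, Alb, Apob, Cps1, Cyp2f2 and Mup9 lie lower, and Fah, Afp and Glul overlap.

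Hippo pathway genes and YAP1 targets were higher in the tumors. Of 21 pathway components tested, 13 rose and 2 fell (median log2 fold change 0.72), and of 24 tested YAP1 target genes (25 listed) 18 rose and 3 fell (median 1.90). The muscle ankyrin repeat gene Ankrd1, a common readout of YAP1, had the largest difference among the targets. The promoters of Ankrd1, Ajuba and Ptpn14 are shown because these 3 targets rose strongly and their upstream 250 bases hold the core letters GGAATG recognised by TEAD factors. They are RefSeq sequences of GRCm38.p6, written 5′ to 3′ on the gene's strand, with GGAATG or its reverse complement CATTCC in capitals.
Ankrd1 (chr19:36119845-36120064, minus strand): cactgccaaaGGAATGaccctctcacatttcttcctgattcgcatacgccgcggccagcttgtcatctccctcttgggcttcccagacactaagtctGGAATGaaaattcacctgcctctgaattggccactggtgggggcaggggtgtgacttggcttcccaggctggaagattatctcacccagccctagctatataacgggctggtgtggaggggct
Ajuba (chr14:54577662-54577861, minus strand): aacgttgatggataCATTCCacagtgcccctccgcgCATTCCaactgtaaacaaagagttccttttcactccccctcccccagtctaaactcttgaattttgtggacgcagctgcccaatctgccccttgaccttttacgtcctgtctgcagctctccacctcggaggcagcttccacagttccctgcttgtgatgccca
Ptpn14 (chr1:189728108-189728267, plus strand): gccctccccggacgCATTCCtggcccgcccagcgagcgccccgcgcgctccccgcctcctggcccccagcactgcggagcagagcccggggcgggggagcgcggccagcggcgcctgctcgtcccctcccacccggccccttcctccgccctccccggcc
The matches lie 210 and 123 bases before the start of Ankrd1, 186 and 164 before Ajuba, and 146 before Ptpn14.

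Ankrd1 reached 525, 887, 565 and 860 in the tumors and 4.32, 7.46 and 0 in the livers (log2 fold change 7.60 ± 0.60, limma adjusted p = 2.99e-08). Its liver values were close to the detection floor, while all tumors were above 500. Ccn2, a secreted matricellular protein and the other standard readout, rose from 281, 371 and 313 in the livers to 2331, 2649, 2302 and 2974 (2.99 ± 0.15, adjusted p = 4.09e-10). Ajuba, a LIM protein that binds LATS kinases, was at 1497, 2509, 2145 and 2314 against 159, 108 and 163 (3.88 ± 0.24, adjusted p = 2.86e-09). Ptpn14, a phosphatase that binds YAP1, was at 842, 1155, 945 and 1343 against 39.9, 76.6 and 81.1 (4.05 ± 0.31, adjusted p = 1.98e-08). None of these 4 genes overlapped between the groups. The share of all tested genes without overlap was not taken, and 68% of all tested genes were called in either direction. The targets that fell were Gadd45a, a stress gene (log2 fold change -1.51), Igfbp3, an IGF carrier (-0.90), and Dock5, a Rac activator (-0.89).

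The DNA-binding partners of YAP1 differed among themselves. Tead1 was at 560, 776, 647 and 852 in the tumors and 32.2, 87.3 and 118 in the livers (log2 fold change 3.31), and Tead4 was at 248, 493, 362 and 446 against 14.8, 23.9 and 9.71 (4.54). Tead2 rose by 1.90 from a lower level. Tead3, at 405, 507, 409 and 511 against 389, 377 and 390, did not pass the test (0.24, adjusted p = 0.184). Wwtr1, which encodes the YAP1 paralog TAZ, rose by 1.66, with 1817 to 2155 in the tumors and 581 to 695 in the livers.

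Among upstream components, the scaffold Amot (1.84) and the kinase Lats2 (0.85) rose, while the MST kinase genes Stk4 and Stk3 overlapped between the groups and did not pass (0.05 and 0.27). The scaffold Amotl1 (-0.53) and Vgll4, a TEAD-binding antagonist of YAP1 (-0.44), were the 2 components that fell. The call of Vgll4 was lost without tumor 1, liver 1 or liver 3 (-0.36, -0.38 and -0.41). Taok1, an upstream kinase, overlapped (-0.10, adjusted p = 0.531).

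Wnt feedback genes rose, whereas most pericentral enzymes did not follow them. Of 12 genes for beta-catenin, its partners and its destruction complex, 8 rose and 1, Csnk1a1, fell (-0.40, but 0.52 under quantile normalization; median of the 12, 0.42), and of 13 tested Wnt feedback targets 9 rose and 2 fell (median 1.13). Axin2, a destruction complex scaffold that beta-catenin itself induces, was at 508, 612, 589 and 651 in the tumors and at 79.4, 83 and 92.1 in the livers (log2 fold change 2.78 ± 0.12, limma adjusted p = 1.15e-10). The receptor gene Tnfrsf19 rose by 3.46 and Lgr5, the R-spondin receptor, by 1.69, with 378 to 516 in the tumors against 122 to 138. The transcription factor gene Tcf7 rose by 2.34, and Lef1, its relative, did not pass (0.26). Notum, a secreted enzyme that inactivates Wnt ligands, fell from 1170, 689 and 1013 to 348, 378, 465 and 511 (-1.15). The Wnt antagonist Dkk4 fell by 1.30 at low levels, with 8.11 to 9.99 in the tumors.

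In liver, Wnt signalling around the central vein sets the genes of pericentral hepatocytes, and periportal hepatocytes express a complementary set. Of 17 pericentral genes, 3 rose and 6 fell (median -0.23), and of 20 periportal genes 1 rose and 16 fell (median -2.96). Glul, glutamine synthetase, the classical pericentral enzyme, was at 4557, 2097, 6183 and 5615 in the tumors and 5851, 4310 and 4520 in the livers. Its groups overlapped (-0.18 ± 0.32, adjusted p = 0.628), and tumor 2 was the lowest of all 7 samples. The pericentral genes that rose were Lgr5, the repressor gene Tbx3 (1.06) and the vasopressin receptor gene Avpr1a (3.11). Those with the largest fall were the cytochrome genes Cyp2a5 (-5.95) and Cyp1a2 (-3.38). Under quantile normalization the pericentral median turned to 0.51.

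On the periportal side, Cyp2f2 fell from 21142, 21489 and 25056 in the livers to 133, 64.8, 283 and 82.4 in the tumors (log2 fold change -7.55 ± 0.52, limma adjusted p = 7.47e-09). Etnppl, a phospholyase of ethanolamine phosphate, fell by 6.63, and Sds, serine dehydratase, by 5.17. G6pc, the phosphatase that releases glucose, was at 7509 to 14324 in the tumors and 7208 to 13497 in the livers and did not pass (0.11). Hamp2, a copy of the iron hormone gene, rose by 1.44, while Hamp itself fell by 1.34. These 2 genes are close copies, so the split of reads between them is uncertain.

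Genes for amino acid breakdown fell almost throughout. No urea cycle and ammonia gene rose and 12 of 13 fell (median -2.70), as did 7 of 8 tyrosine and phenylalanine genes (median -1.73), all 8 tryptophan and kynurenine genes (median -2.66) and 12 of 13 methionine and one-carbon genes (median -1.87). Cps1, which makes carbamoyl phosphate as the first step of the urea cycle, was at 24189, 43432, 47957 and 48908 in the tumors and at 291447, 277258 and 287548 in the livers (-2.85 ± 0.32, adjusted p = 1.44e-06). Every tumor stayed below every liver, and tumor 1 was the lowest. Arg1, arginase (-3.98), Otc, which makes citrulline (-3.69), and Car5a, the mitochondrial carbonic anhydrase that supplies bicarbonate (-4.34), fell further. Glud1, glutamate dehydrogenase, was the exception, at 5875 to 7124 against 6637 to 8704 (-0.18, adjusted p = 0.232). In bulk tissue, fewer hepatocytes and less RNA per hepatocyte cannot be told apart, here and for every hepatocyte gene below.

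Enzymes next to the blocked step of the FAH mice were among those that fell: Hpd, the enzyme NTBC inhibits, fell by 2.39, and Hgd, the next enzyme, by 2.36. Tdo2, which opens the tryptophan ring, fell by 3.76, from 44238 to 67546 in the livers to 3118 to 4719 in the tumors. Gnmt, which uses up S-adenosylmethionine, fell by 3.56. Ahcy, which clears the product of methylation reactions, rose by 1.34 and was the exception in the methionine list.

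Biosynthetic amino acid genes divided. Of 15 tested genes for serine, glutamine, proline and mitochondrial one-carbon supply, 7 rose and 4 fell (median 0.52). Psat1 and Phgdh, the first enzymes of serine synthesis, rose by 4.62 and 4.61, whereas Psph, the last enzyme of that route, fell (-1.16). Psat1 was at 208, 285, 256 and 194 in the tumors and 7.64, 13 and 6.04 in the livers. Slc1a5, a glutamine carrier, rose by 3.59. Asparagine synthetase, Asns, fell by 2.51 and mitochondrial Shmt2 by 2.40.

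Genes of plasma proteins fell in graded fashion. Of 34 carriers and apolipoproteins 22 fell and 1 rose (median -1.44), and of 38 coagulation and complement factors 28 fell and 2 rose (median -1.19). Alb, albumin, was at 30898, 52582, 57374 and 49540 in the tumors and at 214511, 170876 and 187661 in the livers (log2 fold change -2.04 ± 0.27, limma adjusted p = 8.88e-06). Apoe, the apolipoprotein of lipoprotein remnants, was at 61393 to 118940 against 799088 to 1068660 (-3.27). Ttr, the thyroxine carrier, fell by 3.78 and the protease inhibitor gene Serpina3k by 4.89.

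Other abundant hepatocyte messages differed less. Apob, the structural protein of lipoproteins, fell by 1.07 (adjusted p = 0.0189), lost that call without liver 2 (-1.01) or without liver 3, and turned to 0.28 under quantile normalization. Fgb, a fibrinogen chain, was at 87453, 157971, 142573 and 139676 in the tumors and 135418, 104439 and 88068 in the livers (0.26, adjusted p = 0.431). Ahsg, fetuin A, overlapped between the groups (-0.32, adjusted p = 0.407), and so did Fga (-0.06), and under quantile normalization these values turned to 1.30 and 1.32. Mbl2, a lectin of the complement system, fell by 3.97 and F11, a coagulation factor, by 3.84. Pros1, the anticoagulant protein S, rose by 0.89.

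Acute phase genes had no common direction: 4 of 18 rose and 5 fell (median -0.11; 0.59 under quantile normalization). Lcn2, lipocalin 2, an iron-siderophore binding protein, was at 2898, 3629, 4230 and 4155 in the tumors against 37.9, 35.1 and 50.8 (6.47 ± 0.19, limma adjusted p = 1.77e-12). Socs3, a cytokine feedback inhibitor, rose by 2.30. The orosomucoid gene Orm1 fell by 2.90 and the serum amyloid gene Saa4 by 4.06, while Saa1 overlapped (-0.35).

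The major urinary proteins, pheromone carriers that adult male mouse liver makes in large amounts, had the largest falls of the comparison. All 21 tested members fell (22 listed, median log2 fold change -10.91). Mup9 was at 3.99, 2.46, 6.12 and 1.91 in the tumors and at 960768, 715849 and 600635 in the livers (-17.39 ± 0.77, limma adjusted p = 1.07e-10). Mup7 and Mup16 were listed at 0 in all 4 tumors, against liver values of 27701 to 131076 and 18456 to 28014. Mup20, the pheromone darcin, kept the highest tumor level, 1268 to 3564 against 25258 to 56594 (-3.98). These genes are near-identical copies, so values of single members are uncertain, and an unnamed gene model carries exactly the values of Mup9.

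The promoters of Mup9 and Mup17 are shown because the TEAD letters of the YAP1 targets also occur in genes that fell. The capitals again mark CATTCC, which lies 139 bases before the start of Mup9 and 131 before Mup17.
Mup9 (chr4:60421953-60422102, minus strand): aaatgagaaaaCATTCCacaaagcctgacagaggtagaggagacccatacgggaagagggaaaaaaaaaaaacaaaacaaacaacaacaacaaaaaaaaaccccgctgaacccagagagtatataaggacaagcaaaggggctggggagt
Mup17 (chr4:61595833-61595982, minus strand): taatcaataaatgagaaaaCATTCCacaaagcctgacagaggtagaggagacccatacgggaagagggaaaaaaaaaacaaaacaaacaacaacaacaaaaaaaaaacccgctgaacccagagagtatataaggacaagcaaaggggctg
The 2 sequences are near copies, as are the genes. GGAATG or CATTCC occurred in the 250 upstream bases of 11 of 14 Mup promoters (78.6%), 9 of 20 YAP1 target promoters (45%) and 8 of 18 Hippo component promoters (44.4%), against 12.6% of all 27025 RefSeq promoters. It occurred in 12% of promoters of genes that rose, 10.3% of those that fell and 10.4% of those not called.

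Drug metabolism genes fell by large factors, with a few exceptions in the opposite direction. Of 46 cytochrome P450 genes and their reductase 34 fell and 8 rose (median -2.55), and of 54 conjugation and esterase genes 44 fell and 5 rose (median -2.98). Cyp3a11, a main drug-oxidising enzyme, was at 22453, 7884, 26262 and 16514 in the tumors and at 394690, 235074 and 251920 in the livers (-4.10). Cyp2e1, which oxidises ethanol, fell by 0.96 (adjusted p = 0.0215), a call that was lost without liver 1 (-0.79) and turned to 0.51 under quantile normalization. The carboxylesterase genes Ces3b (-9.09) and Ces3a (-7.35) fell, as did Gstm1, of glutathione conjugation (-2.97). Gstm2 (1.47) and Sult1e1, estrogen sulfotransferase (2.87), rose.

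The cytochromes that rose belong to the same families as those that fell. Cyp2b9 was at 207, 173, 354 and 215 in the tumors and at 0, 4.35 and 0 in the livers. Cyp3a41a was at 1208, 1924, 1956 and 2107 against 32.6, 43.5 and 30.2 (5.61), and Cyp3a16 rose by 5.63. Cyp2c69 was at 596, 246, 691 and 401 against 14.2, 14.6 and 16.3 (4.81). Cyp2c29, of the same family, fell from 50603 to 73235 in the livers to 1048 to 3858 (-4.62). Family members share sequence, and reads between near copies may be split uncertainly. The promoters of Cyp2c29, Cyp2c69 and Cyp2a5 are shown because they moved in opposite directions and all hold CAAAGTC, a motif of the hepatocyte factor HNF4, in capitals below.
Cyp2c29 (chr19:39286965-39287084, plus strand): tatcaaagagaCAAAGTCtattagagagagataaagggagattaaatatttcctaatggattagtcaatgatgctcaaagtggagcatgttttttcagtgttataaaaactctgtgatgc
Cyp2c69 (chr19:39886770-39886889, minus strand): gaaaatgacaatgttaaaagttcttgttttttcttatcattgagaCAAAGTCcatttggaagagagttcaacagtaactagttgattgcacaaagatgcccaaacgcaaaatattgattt
Cyp2a5 (chr7:26835219-26835338, plus strand): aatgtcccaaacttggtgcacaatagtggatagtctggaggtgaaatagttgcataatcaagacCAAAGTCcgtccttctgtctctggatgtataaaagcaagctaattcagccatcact
The motif lies 109, 75 and 56 bases before the start. It occurred on either strand in 15 of 37 cytochrome promoters (40.5%) and in 3.8% of all promoters, in 3.58% of those of genes that rose and 3.91% of those of genes that fell.

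Bile acid genes fell with them. Of 12 synthesis genes 11 fell and none passed in the other direction (median -2.15), and of 18 transporters 14 fell and 3 rose (median -1.90). Cyp7b1, of the alternative synthesis route, was at 144 to 186 in the tumors and 16646 to 33826 in the livers (-7.34), and Cyp8b1, which makes cholic acid, fell by 4.73. Cyp7a1, the rate-limiting enzyme of the classical route, was at 3502 to 4802 against 5385 to 8195 and missed the threshold (-0.67, adjusted p = 0.0759). Slc10a1, which takes up bile acids from blood, and Abcb11, the bile salt export pump, fell (-4.05 and -1.99). The organic anion carrier Slco1a1 fell by 6.72, whereas Slco1a4 rose by 2.42 and the multidrug exporter Abcb1a by 1.74.

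Most hepatocyte transcription factors fell: 20 of 30 fell and 4 rose (median -1.02). Hnf4a, the master regulator of hepatocyte identity, was at 1292, 2064, 1930 and 2090 in the tumors and 3310, 2524 and 3040 in the livers (-0.70 ± 0.17, limma adjusted p = 0.00205). Its groups did not overlap. Nr1i3, the xenobiotic receptor CAR, fell from 8932, 5828 and 7406 to 292, 108, 272 and 214 (-5.13). Cebpa, a factor of hepatocyte maturation, and Nr0b2, the bile acid responsive repressor SHP, fell (-2.96 and -3.36). Prox1 (0.23) and Nr5a2 (0.04) overlapped between the groups. Gata6, an early endoderm factor, rose by 1.45, and Onecut2 rose by 0.77.

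Most fetal liver and hepatoblastoma genes rose, by very different amounts. Of 25 tested genes (28 listed) 18 rose and 2 fell (median 1.63). Gpc3, a heparan sulfate proteoglycan used as a marker of hepatoblastoma, was at 3004, 8095, 6056 and 7044 in the tumors and at 99.4, 69.4 and 102 in the livers (log2 fold change 5.98 ± 0.41, limma adjusted p = 7.32e-09). Afp, alpha-fetoprotein, the serum marker of the disease in people, was at 103, 175, 129 and 79.2 against 169, 121 and 136. Its groups overlapped (-0.27 ± 0.63, adjusted p = 0.722).

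Igf2, a fetal growth factor, was also low, at 30.9, 16.3, 22.1 and 85.7 against 15.4, 45 and 21.4 (0.34, adjusted p = 0.596), and Dlk1, a hepatoblast surface protein, was near 1 in the tumors. Peg10, a retrotransposon-derived imprinted gene, rose by 4.07, Igf2bp1, an oncofetal RNA-binding protein, by 4.41, and Spink1, a secreted trypsin inhibitor, by 4.55. The follistatin-like gene Fstl3 rose by 4.76. The RNA-binding protein gene Igf2bp3 (0.85), the imprinted gene Mest (0.92) and the transcription factor gene Mycn (0.98) rose by less than 2-fold. The factor gene Plag1 fell by 2.16 at low levels, and Trim71 also fell (-0.91). Among 19 tested imprinted genes (24 listed) 7 rose and 6 fell (median 0.34). Peg10 and its neighbour Sgce (3.15) rose, whereas Slc38a4, an amino acid carrier, fell by 2.41.

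In the growth hormone and IGF axis, 9 of 21 genes rose and 11 fell (median -0.29). The hepatic effector genes Ghr (-3.05), Igf1 (-1.77) and Igfals (-2.39) fell. Igfbp1, a short-lived IGF carrier that insulin represses, was at 10100, 14130, 16816 and 17594 in the tumors against 800, 1083 and 1846 (3.61). Irs2, an insulin receptor substrate, rose by 1.77. Of 21 tested genes of the EGFR, FGF and MET systems 11 rose and 6 fell (median 0.71): the receptor genes Egfr (-2.40) and Met (-1.11) fell, and the ligand genes Tgfa (1.24) and Ereg (2.98) and the receptor gene Fgfr1 (2.60) rose.

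Bile duct and liver progenitor genes were high in the tumors. Of 24 tested genes (26 listed) 19 rose and 3 fell (median 2.89). Sox9, the transcription factor of duct and progenitor cells and a known YAP1 target, was at 869, 1165, 1028 and 1512 in the tumors and 67.3, 72.5 and 107 in the livers (3.78 ± 0.32, limma adjusted p = 5.35e-08). Spp1, osteopontin, was at 32869, 33516, 27496 and 35975 against 607, 509 and 553 (5.86 ± 0.28, adjusted p = 1.91e-10). Per base of transcript its tumor level was of the same order as Alb but lower than Alb in most tumors. Spp1 is also made by macrophages.

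Muc13, a surface mucin, was at 582, 1060, 1389 and 988 in the tumors against 2.72, 7.54 and 4.55 (7.42), and Psca, a surface antigen, rose by 8.68. The adhesion molecule genes Epcam (3.28) and Cd44 (4.27) rose too. The mature duct keratins were low: Krt19 was at 20.1 to 66.6 against 10.6 to 17.6 (1.31) and Krt7 at 46.7 to 78 against 5.64 to 21.4 (2.40). Ggt1 (-3.10), Krt23 (-2.01) and the water channel gene Aqp1 (-1.15) fell.

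Of 25 epithelial junction and mesenchymal genes, 13 rose and 2 fell (median 0.84). The largest rises were in the calcium-binding proteins S100a11 (5.98), Anxa3 (4.26) and Anxa5 (4.05). The intermediate filament gene Vim (2.06), the mesenchymal cadherin gene Cdh11 (1.46) and the tight junction genes Tjp1 (0.84) and Ocln (0.31) also rose. The mesenchymal factor genes were split: Snai1 (1.35) and Zeb2 (0.89) rose, while Zeb1 (-0.22), Snai2 (-0.33) and Twist1 (1.08) overlapped and were not called. Fn1 (0.70) was not called either. The cadherins Cdh1 and Cdh2 (0.37 and -0.13) and the hepatocyte keratin Krt8 (-0.04) overlapped between the groups. Of 14 tested Notch genes 9 rose and none fell by the test (median 0.60), led by the ligand Jag1, at 663, 1072, 799 and 1064 against 175, 144 and 150 (2.50). Of 24 TGF-beta and BMP genes 11 rose and 6 fell (median 0.27). The ligand genes Tgfb2 and Tgfb3 rose by 3.61 and 3.42, while Bmp2, made by sinusoidal endothelium, fell by 1.45.

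Cell cycle genes rose more for mitosis than for replication. All 32 mitosis genes rose (median 3.00), as did 23 of 32 genes for DNA replication and nucleotide supply, of which 3 fell (median 0.80). Mki67, the proliferation marker Ki-67, was at 1300, 2487, 1844 and 2225 in the tumors and at 58.3, 64.7 and 84.7 in the livers (log2 fold change 4.78 ± 0.28, limma adjusted p = 1.51e-09). The promoters of 4 such genes are shown because mitotic and replication genes carry different motifs. Capitals mark, on either strand, the CCAAT box (CCAAT or ATTGG) in all 4, the CHR element TTTGAA of cell cycle genes in Cdk1 and Mki67, and the E2F motif TTTGGCG in Mcm6. The CHR letters of Ccnb2 lie 167 bases before the start, outside the part shown.
Cdk1 (chr10:69352913-69353012, minus strand): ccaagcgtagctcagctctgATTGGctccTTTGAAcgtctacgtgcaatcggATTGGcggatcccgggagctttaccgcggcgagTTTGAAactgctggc
Ccnb2 (chr9:70421555-70421654, minus strand): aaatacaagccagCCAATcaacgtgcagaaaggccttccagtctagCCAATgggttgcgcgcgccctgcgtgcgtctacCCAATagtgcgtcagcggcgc
Mki67 (chr7:135716380-135716579, minus strand): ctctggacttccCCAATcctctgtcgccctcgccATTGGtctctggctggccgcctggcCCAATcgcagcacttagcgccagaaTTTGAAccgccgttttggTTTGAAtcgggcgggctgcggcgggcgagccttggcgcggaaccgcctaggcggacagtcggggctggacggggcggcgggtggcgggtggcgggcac
Mcm6 (chr1:128359706-128359825, minus strand): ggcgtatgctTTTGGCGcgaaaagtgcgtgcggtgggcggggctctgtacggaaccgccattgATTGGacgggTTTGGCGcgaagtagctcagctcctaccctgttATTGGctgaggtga
The CCAAT box occurred in 22 of 26 mitosis promoters (84.6%), 17 of 26 replication promoters (65.4%) and 34.5% of all promoters. The CHR letters occurred in 8 mitosis promoters (30.8%) and in 7.69% of replication promoters, against 16.3% of all. The E2F letters occurred in 4 replication promoters (15.4%), in no mitosis promoter and in 1.28% of all.

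Cdk1, the mitotic kinase, was at 444, 683, 487 and 398 in the tumors against 72.9, 72.7 and 51.8 (2.90), and Ccnb2, its cyclin, was at 508, 735, 743 and 515 against 42, 21.7 and 42.3 (4.14). Mcm6, a subunit of the replicative helicase, rose by 3.54, while its partner Mcm2 did not pass (0.49, adjusted p = 0.07). Mcm10, another replication factor, went against the list, at 98.2, 113, 96.6 and 82.2 against 4025, 3474 and 2638 (-5.09). Tk1, thymidine kinase, also fell (-0.54), a call that was lost without liver 1 (-0.46).

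Of 21 genes of G1 control 13 rose and 5 fell (median 0.51). Ccnd1, cyclin D1, which opens the G1 phase, was at 4032, 6732, 5471 and 5576 against 208, 167 and 220, 27.1-fold higher (log2 fold change 4.76 ± 0.16, limma adjusted p = 4.93e-12). Myc, a growth transcription factor, rose by 1.77, and Ccne1, cyclin E1, fell by 1.40. Of 22 CDK inhibitors and p53 targets 12 rose and 5 fell (median 0.48). Cdkn1a, the inhibitor p21, was at 612, 768, 902 and 923 against 29.1, 32.7 and 46.9 (4.44), whereas the apoptosis gene Bbc3 fell by 2.12 and Mdm2 overlapped (-0.16).

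Of 21 DNA methylation and Polycomb genes 13 rose and 4 fell (median 0.44). Uhrf1, which recruits the maintenance methyltransferase, rose by 2.74, and Dnmt1, that enzyme, overlapped (0.06). The proliferation-linked methyltransferase Ezh2 rose by 1.15. Ribosome biogenesis genes did not rise with the cell cycle: 2 of 24 rose and 13 fell (median -0.39). Of 30 cytosolic ribosomal proteins 3 rose and 8 fell (median -0.25). Under quantile normalization the ribosomal protein median turned to 0.83, with 23 higher and 0 lower, so no direction is given. The genes Rplp0 and Rpl3 stood apart, at 9689 to 15326 against 743 to 928 and at 6255 to 11089 against 392 to 563. Both have processed copies that share reads with them.

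**Figure D2:**
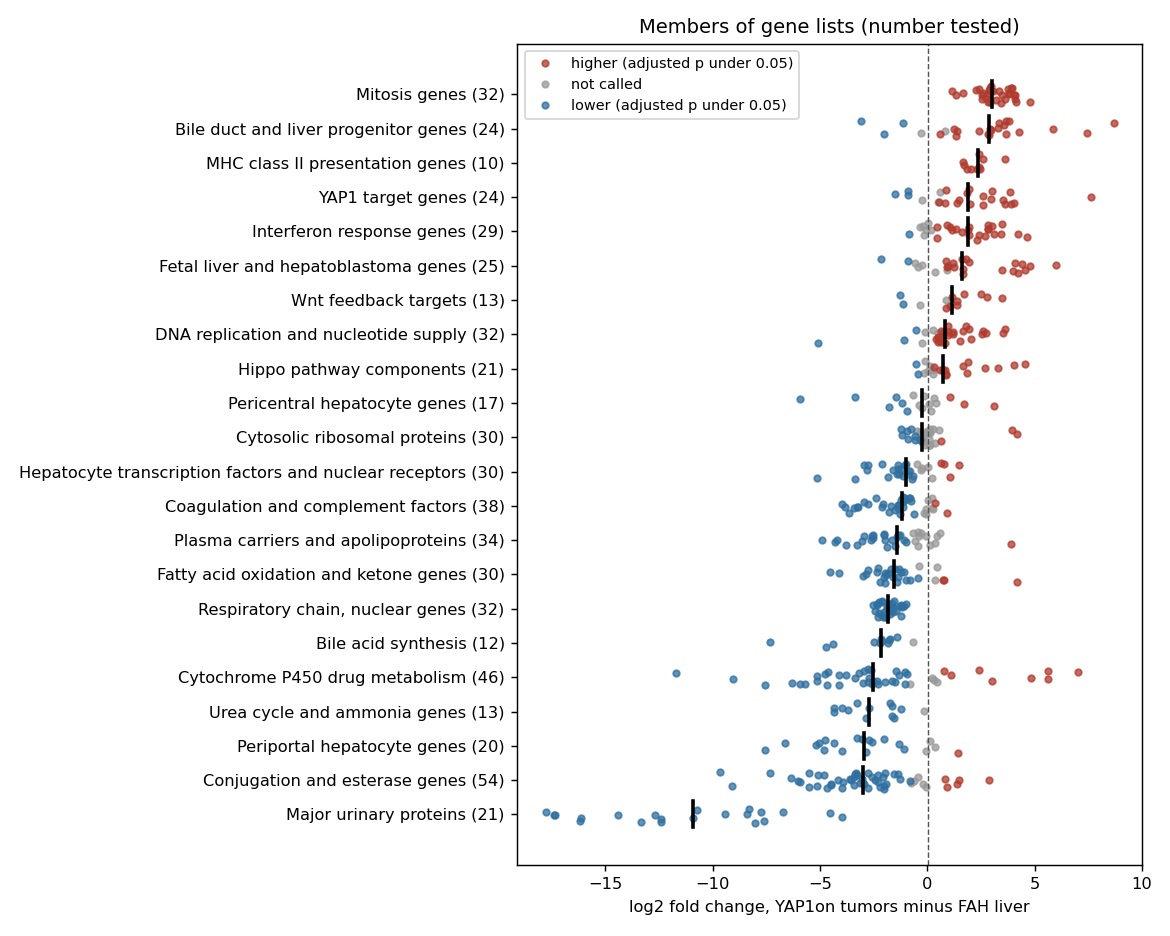
log2 fold change of every tested member of 22 gene lists (YAP1on tumors minus FAH liver, limma), each point a gene, colored by call, with a black bar at the list median and the number tested in parentheses. The 32 mitosis genes all lie above 0 and the 21 major urinary protein genes and 32 nuclear respiratory chain genes all lie below it, while the cytochrome list spans both sides.

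Genes of sugar and glycogen metabolism mostly fell, with growth-type isozymes rising in part. Of 28 glycolysis and lactate genes 10 rose and 15 fell (median -0.72), of 19 gluconeogenesis and glycogen genes 2 rose and 15 fell (median -1.36), and of 7 tested pentose phosphate genes 1 rose and 4 fell (median -0.79). Hk2, a hexokinase of growing cells, was at 96.8, 53.9, 103 and 106 in the tumors against 24.9, 16.4 and 27.3 (1.91). Gys2, the liver glycogen synthase, fell by 3.54 and Fbp1, of gluconeogenesis, by 2.57. Pck1, the cytosolic gate of gluconeogenesis, fell by 1.09 (0.27 under quantile normalization) and mitochondrial Pck2 rose by 2.67. Ldha, lactate dehydrogenase, rose by 0.80.

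To follow such pairs within each sample, the log2 ratio of the growth-type to the adult-type gene was taken per base of transcript for 13 pairs. In 11 pairs all tumors had a higher share of the growth form than all livers, in 1 pair the reverse held, and in 1 pair the groups overlapped. No such count was taken over other gene pairs, and 68% of all tested genes were called in either direction. A ratio can shift without a rise of the growth form: Aldoa itself fell (-1.10), and Afp (-0.27) and Igf2 (0.34) did not pass. Arginase had the largest shift of the 13: Arg2 over Arg1 was -5.59 to -4.91 in the tumors and -11.04 to -10.52 in the livers. Glycogen synthase (Gys1 over Gys2) was at -3.29 to -2.33 against -7.75 to -7.53, and glycogen phosphorylase (Pygb over Pygl) -3.13 to -2.78 against -7.93 to -7.63. In these 3 pairs the adult form stayed the higher one in every tumor. Pyruvate kinase (Pkm over Pklr) crossed from -1.44 to -0.18 in the livers to 0.76 to 1.62 in the tumors. Serine hydroxymethyltransferase went the other way, with Shmt2 over Shmt1 at -1.92 to -1.61 against -1.27 to -1.21. The glucose transporter genes Slc2a1 and Slc2a2 fell together and their ratio overlapped, although Slc2a2 turned to 0.40 under quantile normalization.

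**Figure D3:**
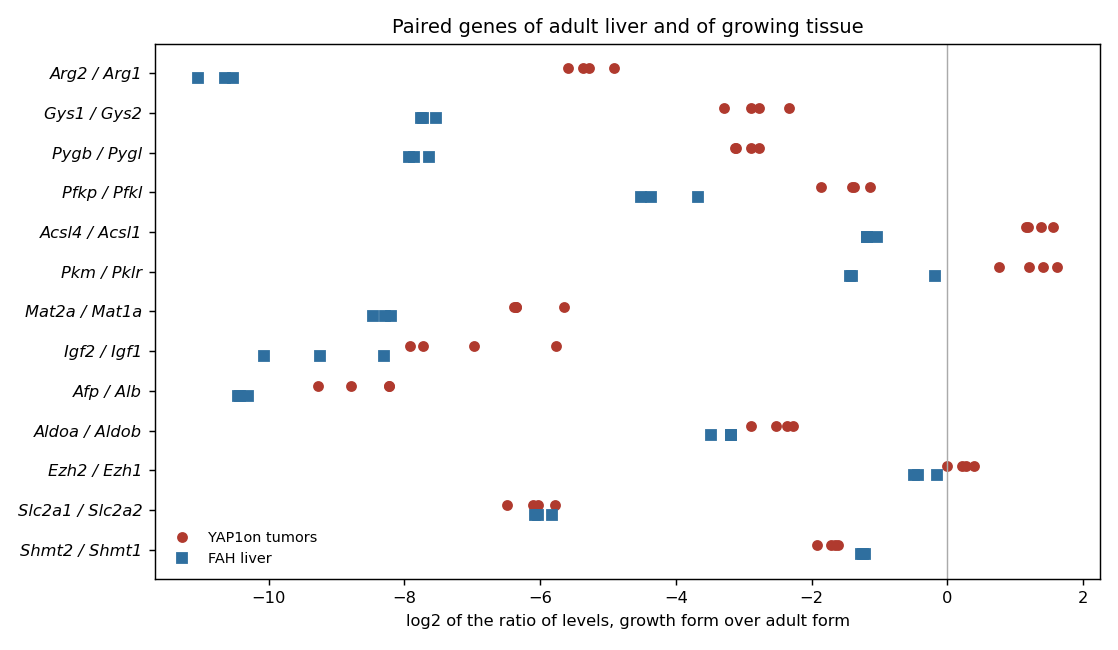
log2 ratio of the growth-type gene to the adult-type gene for 13 pairs in each tumor and liver sample, where 0 marks equal abundance per base. In 11 pairs every tumor lies above every liver, Shmt2 over Shmt1 lies lower in the tumors, and Slc2a1 over Slc2a2 overlaps.

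Most genes of mitochondrial fuel use fell, as did the nuclear genes of the respiratory chain. Of 30 fatty acid oxidation and ketone genes 24 fell and 3 rose (median -1.55), and all 32 nuclear respiratory chain genes fell (median -1.82). Fabp1, the liver fatty acid carrier, fell by 4.52. Atp5b, a catalytic subunit of ATP synthase, was at 7365 to 11787 against 37292 to 49546 (-2.13), and Ndufv1, of complex I, fell by 2.52. Pdk4, which shuts the pyruvate dehydrogenase complex, rose by 4.18, from 9.76 to 21.4 in the livers to 254 to 289.

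The 13 genes of the mitochondrial genome did not follow the nuclear ones: 8 rose and 2 fell (median 0.70). mt-Nd4l (4.31) and mt-Nd2 (2.47), of complex I, rose most, and mt-Co2 and mt-Co3, of complex IV, fell by 0.96 and 1.01, values that turned to 0.15 and 0.36 under quantile normalization. mt-Co1, the most abundant, was at 280761 to 582135 against 781666 to 1039853 (-1.14, adjusted p = 0.0565), passed without tumor 1 (-1.34) and turned to 0.74 under quantile normalization. The genes are transcribed together as long precursors, but their differences were unequal. Their summed abundance overlapped, at 847951 to 1587877 in the tumors and 1185852 to 1509525 in the livers. The higher mitochondrial percentage of the tumor libraries is a share of a lower summed signal. The part of library preparation in these differences was not tested.

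Most genes of fatty acid and triglyceride synthesis were lower as well. Of 28 tested genes for fatty acid and triglyceride synthesis 17 fell and 3 rose (median -0.77). Thrsp, a lipogenic regulator, was at 653 to 1048 in the tumors against 26112 to 28100 (-4.98), and Srebf1, the lipogenic transcription factor, fell by 1.86. Fasn, fatty acid synthase, fell by 0.74. Pnpla3, a lipid droplet enzyme, rose by 5.44 and Fabp4, a fatty acid carrier of endothelium and macrophages, by 2.33. Of 26 cholesterol genes 11 fell and 3 rose (median -0.29, 0.18 under quantile normalization): the synthesis genes Hmgcs1 (1.56) and Sqle (1.81) rose. The CCAAT box occurred in 16 of 18 cholesterol promoters (88.9%), so this motif is not limited to genes that rose.

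Stress genes were mostly lower. Of 23 ER chaperone and ATF4 genes 17 fell and 3 rose (median -1.12), of 20 NRF2 redox genes 11 fell and 4 rose (median -0.68), and of 15 iron genes 10 fell and 3 rose (median -0.53). Hyou1, an ER chaperone, was at 1585 to 2525 against 6472 to 10209, and Hspa5, the chaperone BiP, fell by 0.80. Atf3, an early stress factor, rose by 3.00. Gclc, the rate-limiting enzyme of glutathione synthesis, fell by 2.74, and Gpx3, a secreted peroxidase, rose by 3.87. The transferrin receptor gene Tfr2 of hepatocyte iron sensing fell by 1.74.

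Interferon response, MHC class II and most chemokine genes were higher in the tumors, and MHC class I genes were mixed. Of 29 interferon response genes 22 rose and 1 fell (median 1.90), all 10 MHC class II presentation genes rose (median 2.35), and 15 of 18 chemokines rose with 2 falling (median 2.36). Oas2, which senses double-stranded RNA, was at 469, 367, 453 and 386 against 9.69, 21.5 and 18 (4.65), and Irf7, an interferon regulator, rose by 3.12. Interferon-gamma targets divided: Cxcl9 (2.83), Gbp2 (2.66), Gbp3 (2.38) and Cxcl10 (1.90) rose, Igtp fell (-0.84) and Irf1 did not pass (-0.18, adjusted p = 0.289). Cd74, the class II chaperone, was at 9584, 8918, 11526 and 12682 against 2645, 1802 and 1741 (2.38). Of 17 class I genes 6 rose and 2 fell (median 0.26): H2-Q7 rose by 3.37, the liver-secreted H2-Q10 fell by 1.65, and H2-K1 overlapped (0.20). The summed class I abundance was lower in every tumor, at 73873 to 109733 against 128866 to 179272. The monocyte attractant Ccl2 was at 234, 141, 197 and 208 against 11.7, 3.57 and 5.57 (4.73). The 2 chemokines that fell, Cxcl12 (-0.57) and Ccl9 (-1.37), were the most abundant ones. The summed chemokine abundance overlapped, at 9504 to 12994 in the tumors and 12865 to 17356 in the livers.

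Markers of the cell types that the tissue can hold moved with these groups, and their part in any result above was not tested. The summed abundance of 10 hepatocyte markers was 324022, 556947, 560025 and 537784 in the tumors against 1438927, 1291604 and 1289038, and 8 of the 10 fell. Of 10 recruited macrophage markers 9 rose, and their sum was 45364 to 56730 against 3485 to 4729, most of it from Spp1 and the lysozyme gene Lyz2. Lyz2 alone was at 18416, 11039, 11538 and 8200 against 1297, 632 and 551 (3.94). All 9 tested neutrophil markers rose, with sums of 922 to 2841 against 143 to 193, and 11 of 12 tested T and NK cell markers rose, with sums of 317 to 462 against 103 to 129.

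Of 10 Kupffer cell markers 7 rose and 2 fell, with sums of 10283 to 18119 in the tumors and 7188 to 10978 in the livers, so these sums overlapped. Clec4f, specific to these resident macrophages, rose with overlap (0.91), and Timd4 did not pass (0.62). Of 11 tested sinusoidal endothelial markers 6 fell and none rose by the test, with sums of 6031 to 8586 against 10414 to 11044. Clec4g, a lectin of these cells, fell by 1.60, whereas Stab2 and Lyve1 did not pass. Of 12 vessel markers 6 rose and 2 fell: Cd34 rose by 3.05 and Esm1, an angiogenic tip cell gene, by 3.96, while Kdr, the main VEGF receptor, fell by 0.90. Of 20 stellate cell and fibroblast markers 14 rose and none fell by the test. Col1a1, of fibrillar collagen, was at 154, 177, 214 and 384 against 8.24, 10.7 and 11.3 (4.31), and Lrat, of vitamin A storing stellate cells, overlapped (-0.30). Of 9 tested B cell and plasma cell markers 6 rose, and of 9 tested red cell precursor markers 5 rose and 3 fell.

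**Figure D4:**
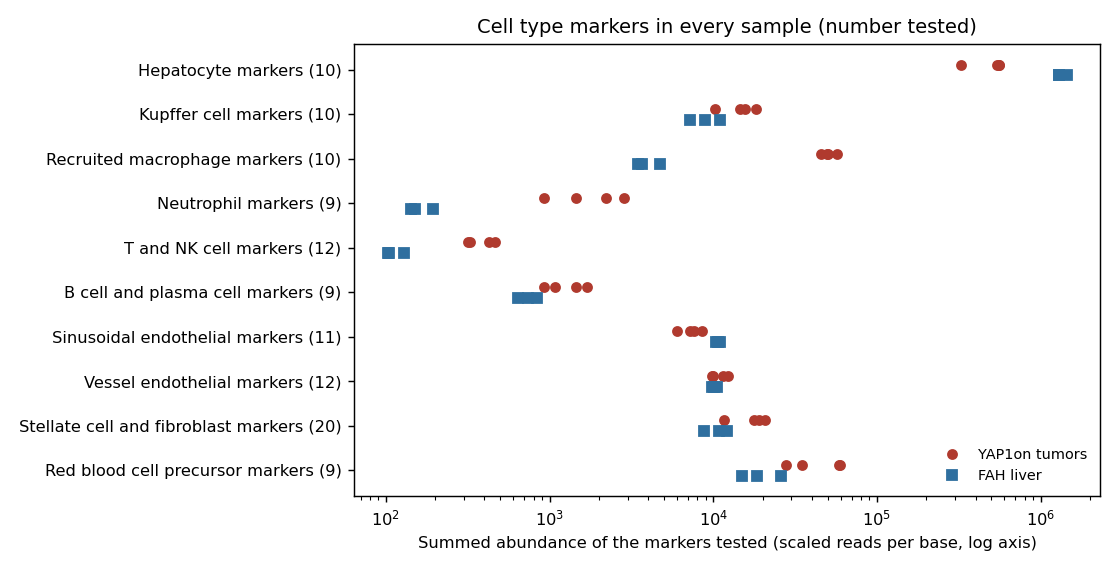
Summed abundance of 10 cell type marker lists on a log axis in each tumor (circles) and liver (squares). The hepatocyte and sinusoidal sums are lower in every tumor, the recruited macrophage, neutrophil, T and NK cell, B cell and red cell sums are higher in every tumor, and the Kupffer, vessel and stellate sums overlap.

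Sex, strain and time of day differ between the groups or are unrecorded, and genes that track them differed. The 4 tested Y-linked genes fell: Eif2s3y was at 0.775, 1.59, 2.81 and 2.36 in the tumors and 940, 734 and 706 in the livers, and Ddx3y was at 4.85 to 29.5 against 2276 to 3440. Uty and Kdm5d kept 41.9 to 90.6 and 125 to 174 in the tumors, and both have X-linked near copies, so these residual values are uncertain. Of 15 genes known as male-biased in mouse liver 14 fell and 1, Serpina1e, rose (median -6.72), and of 19 female-biased genes 10 rose and 2 fell (median 2.39). Cyp4a12a, a male-biased cytochrome, was at 5.87, 3.88, 11 and 11.4 against 30451, 28381 and 26574 (-11.72). The falls of Mup7, Mup12, Mup20, Cyp4a12a, Elovl3 (-9.32), Cyp7b1 and Slco1a1 belong to the male-biased list. The rises of Cyp2b9, Cyp2c69, Cyp3a41a and Cyp3a16 belong to the female-biased list. The other urinary protein genes were not listed as sex-biased, which does not show that they lack a sex bias. For all of these genes, the unlisted urinary protein genes included, sex and tumor state cannot be told apart here.

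In the tumors 6 days after YAP1 was switched off, from another mouse, and in liver samples labelled hbHep from 3 other FAH Delta Exon 5 mice, the same genes had these means. Eif2s3y was at 3.7 in the day 6 tumors and 520 in hbHep, Cyp4a12a at 2.26 and 10221, and Cyp2b9 at 3846 and 0.616. The 4 Y-linked genes were low in both tumor groups and high in hbHep. The male-biased genes had no such common pattern: Cyp2d9 was at 597 in the day 6 tumors and 12134 in hbHep, Elovl3 was low in both (7.21 and 41.2), Mup20 was at 2300 and 1039, and Serpina1e was at 7901 and 47.

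All 9 tested genes of a list known to vary among inbred strains fell (median -1.48). Rps3a2 was at 0 to 2.39 in the tumors and 4766 to 7847 in the livers, and Ifi202b at 0.647 to 2 against 27.2 to 73.1. Some of the largest rises had the same present or absent form. Rpl15-ps3 was at 4413, 3103, 2957 and 1877 and Gvin1 at 1369, 2262, 1821 and 1896 in the tumors, and both were listed at 0 in all 3 livers. In hbHep these 2 genes were at 0 and 8.05, and in the day 6 tumors at 1806 and 6476. Rps6-ps4 and Rpl31-ps8 were likewise high in both tumor groups. Pseudogenes share reads with their parent genes, so these values are uncertain.

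Of 16 clock genes 4 rose and 9 fell (median -0.86). Arntl, which encodes the activator BMAL1, was at 474, 465, 588 and 609 against 133, 134 and 95.3 (2.14), and its partner Npas2 rose by 3.56. The output factor gene Dbp fell by 2.79 and Ciart by 3.55. The hour of collection is not given.

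Beyond the lists, the genes with the largest rises at a tumor mean of at least 1000 included Fgfbp1, a carrier that releases FGFs from the matrix, at 1873, 3367, 2362 and 2098 against 0, 1.55 and 0 in the livers. It was at 146 in the day 6 tumors and 18.5 in hbHep. Fam83b, of a family of signalling scaffolds, was at 898 to 1879 against 3.05 to 6.79 (8.13), Parm1, a surface mucin-like protein, rose by 7.16, and Scn7a, a sodium channel, was at 2736, 3952, 3033 and 4016 against 39.3, 49.3 and 25.7 (6.49). Each of these 4 was lower in the day 6 tumor mean than in every YAP1on tumor. They were picked for high values in the YAP1on tumors, which favors this, so nothing is drawn from it. Gvin1, picked by the same rule, had a day 6 tumor mean of 6476, above every YAP1on tumor.

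Predicted gene models made up 31.7% of genes that fell by at least 8-fold, 16.3% of those that rose by that much and 12.4% of all tested genes.

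The 4 tumors resembled each other closely, apart from a minority of genes. Over 11517 genes with a mean abundance of at least 100, the median SD of log2 values was 0.19 among tumors and 0.22 among livers, and 55.1% of genes varied more among the livers. Of 395 genes with a tumor mean of at least 100 and a log2 SD over 0.5, tumor 1 was the highest for 184 and tumor 4 the lowest for 185. Among the 124 of these that were lower than in liver, tumors 1 and 3 were the highest for 68 and 35, and tumors 2 and 4 the lowest for 42 and 63. Cyp4a14, a fatty acid hydroxylase, was at 1565, 231, 1592 and 993 in tumors 1 to 4, Apoa4 at 7655, 1754, 6902 and 3719, and Serpina3k at 10253, 3193, 10740 and 6532. Tumor 2 was the lowest for each of these 3. It was also the lowest for the neutrophil sum (922, against 1442 to 2841) and the stellate sum (11594, against 17666 to 20791), while its hepatocyte sum was not low. Tumor 1 had the highest mitochondrial share and was the lowest for several abundant hepatocyte messages, such as Trf, transferrin, at 90978 against 150709 to 160384.

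Open chromatin was mapped by Omni-ATAC, an assay that inserts sequencing adapters where DNA is free of nucleosomes, in 1 YAP1on library and 1 library of liver labelled WT, which is not the FAH liver. With 1 library a group there is no test. The YAP1on list holds 829850 intervals with a median width of 21 bases and the liver list 571520 with a median of 61 bases, so shares depend on how each list was made. Among 12468 tested genes with a RefSeq start, 84.7% had a YAP1on interval and 84.3% a liver interval within 500 bases. The shares were 85.3 and 82.9% for genes that rose, 90.9 and 92.3% for those that fell and 77.4 and 77.3% for those not called.

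The lists differed more among genes with large RNA differences. Of 527 genes that rose by at least 8-fold, 88.8% had a YAP1on and 78.7% a liver interval, and 60 had only the former against 7 with only the latter. Of 284 genes that fell by at least 8-fold, 59.2% had a YAP1on and 72.5% a liver interval, with 7 only in the former and 45 only in the latter. Within 100 bases the shares were 77.4 and 73.1% for the genes that rose, with 77 and 54 in 1 list only, and 46.5 and 66.9% for those that fell. With at least 50 bases of overlap the first pair turned to 19.7 and 65.3%, with 15 and 255 in 1 list only, while the second was 10.2 and 66.5%. Below a log2 fold change of -5, over 70 genes and within 500 bases, the shares were 37.1 and 80%.

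**Figure D5:**
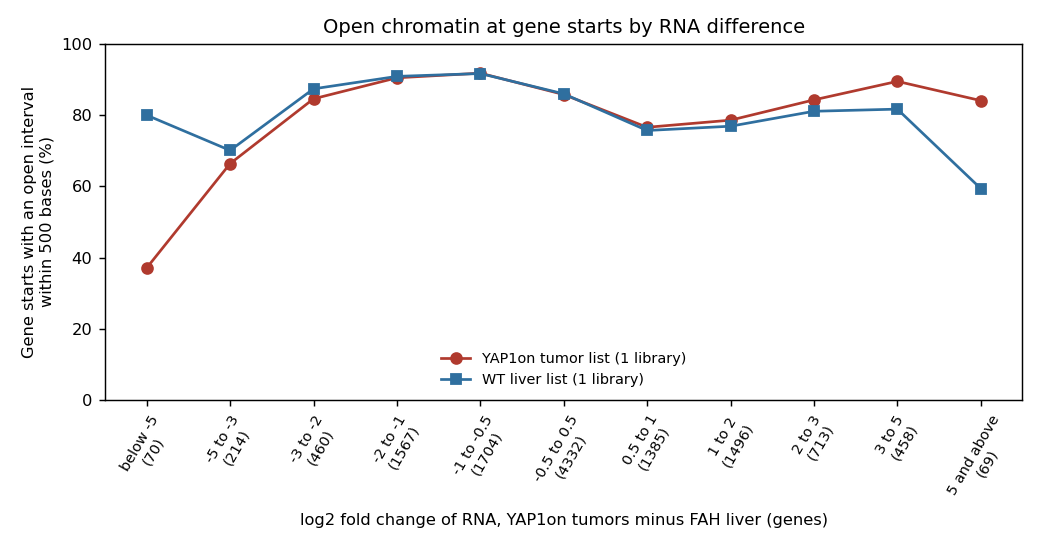
Percent of gene starts with an interval within 500 bases in the YAP1on list (circles) and the WT liver list (squares), by the RNA log2 fold change of the genes, with the number of genes in parentheses. The lists lie together between -2 and 2, the liver list is higher below -5 (80 against 37.1%), and the YAP1on list is higher from 5 upward (84.1 against 59.4%).

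By gene group, 1 of 14 urinary protein starts with a RefSeq entry had a YAP1on interval and 12 a liver interval. For the cytochromes these were 21 and 30 of 37, for fetal and hepatoblastoma genes 16 and 11 of 20, for duct and progenitor genes 13 and 10 of 18, and for YAP1 targets 20 and 18 of 20. All 26 mitosis starts had both. The nearest interval to the Ankrd1 start lay 15 bases away in the YAP1on list and 9646 bases away in the liver list. For Muc13 these distances were 6 and 3373, for Fgfbp1 45 and 7405, and for Scn7a 0 and 3673. In the other direction, Cyp2f2 had 4466 and 0, Cyp2a5 1347 and 0, and Mup9 3333 and 0.

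Some genes went against their RNA: Bmp4 (1326 and 66), Cyp3a16 (4541 and 213) and S100a8 (4619 and 46) rose in RNA and had an interval within 500 bases only in the liver list. Alb, lower in RNA, had intervals at 11 and 14 bases in both lists, and Afp had none within 500 bases in either (1012 and 1554). The Y-linked starts of Eif2s3y, Ddx3y and Uty had an interval within 500 bases only in the liver list. Of the 5 starts of X inactivation and Y-linked genes, 4 had one only in the liver list and 1 only in the YAP1on list.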

How the data were processed

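RNA of 17 libraries was quantified by the authors with kallisto 0.45.0 and sleuth, per the submitters' processing notes, which name GRCm38.p6. The deposited RNA table gives a signal per gene, read here from its name and values as scaled reads per base, with 36555 genes and no counts. The 2 technical libraries of each of 3 hbHep mice were averaged, leaving 14 samples in 4 groups, all of which entered the fit and shared its estimate of the spread. Values were rescaled by the median of ratios, and genes with at least 10 in at least 3 samples were kept. log2(abundance + 1) was tested with limma 3.58.1 (trend, R 4.3.3) and adjusted by Benjamini-Hochberg at 0.05. Single genes were compared by exact permutation of the 7 samples. The model code was checked on simulated data.

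The members and gene lists were chosen with earlier results of these data known. Named genes were fixed marker genes, up to 3 per list and direction with the largest non-overlapping change, the 10 largest changes each way at a mean of at least 1000, the 10 most abundant genes per group and the 10 most variable among tumors. Other genes named were chosen with their values seen. Genes in more than 1 list are counted in each.

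The ATAC intervals, in mm10 as deposited, are start and end positions of another kind than signal and carry no score. The processing notes name bcl2fastq, cutadapt, BWA, SAMtools and Picard, and the program that made the intervals is not given in the sources used here. Zero-width intervals were left out. Gene starts and promoters are RefSeq entries of GRCm38.p6, matched by symbol, and motif searches covered the 250 bases before the start on both strands. Alternatives were the pseudocount, the filter, the scaling, the groups in the fit, tumors averaged per mouse, a replicate block, each sample left out in turn, and the window and overlap for intervals. A few genes are counted in their lists but not reported by name, and H19 and ATAC libraries after YAP1 withdrawal were not analysed here.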

Additional observations from a re-analysis of the deposited data

Results flagged for a closer look

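For 21 of 376 named genes, 1 tumor lay far from the other 3 relative to the range of the group. Chance alone flags about 1 in 20 groups of normally distributed values. That rate does not carry over to this set. It holds genes at 0 in the other 3 tumors, which the rule always flags, and genes picked for their spread among tumors. The tumors share a mouse, and no cause was tested.

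Tumor 1 was the low sample for 7 of them. It had 285 for the Wnt factor gene Tcf7, 501 for the receptor gene Tnfrsf19, 268 for the exporter gene Abcb1a, 994 for the hepatocyte-secreted ligand gene Mst1 and 47.7 for the apoptosis gene Bbc3. It also had 90978 for transferrin (Trf) and 93862 for fetuin A (Ahsg). Tumor 1 was the high sample for the T cell gene Cd8a, at 99.4. Near the detection floor it alone had a value above 0 for Elovl3 (0.596), Mup12 (1.47) and Mup10 (1.1).

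Tumor 2 was high for Apln, a ligand of angiogenic endothelium, at 85.4, and low for the keratin gene Krt23, at 52.4. Tumor 3 was high for the folate enzyme gene Ftcd (2018), the anion carrier gene Slco1a1 (125), the repeat-like model Gm10800 (33.2) and, at the floor, Mup17 (0.996). Tumor 4 was high for the Wnt antagonist gene Dkk4 (9.99), the coactivator gene Ppargc1a (606) and, at the floor, Serpina4-ps1 (0.666), and low for the p53 target gene Trp53inp1 (5849).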

How the results depend on the processing

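Requiring at least 100 in 3 samples left 12429 genes, of which 4013 were higher, 2364 of them by 2-fold. Averaging the tumors gave 3289 higher and 3688 lower. Leaving out 1 sample gave 5800 to 6077 higher and 5517 to 5865 lower, with 3969 to 4413 and 3047 to 3379 past 2-fold, and log2 fold changes of 2.56 to 2.90 for Yap1, 2.03 to 2.25 for Ctnnb1 and 0.25 to 0.49 for Fah. Fah passed the test without tumor 1 (0.49) and under quantile normalization (0.88). The replicate block gave 5870 higher and 5738 lower. Same-numbered samples correlated at -0.0725 to -0.0307, so the numbers did not pair the samples.

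Over all alternatives, 5761 values of named genes kept their direction and call, 143 lost the call, 15 gained one and 19 reversed. Of the lost calls, 66 came with the tumors averaged and 24 under quantile normalization. All 19 reversals came under quantile normalization, and the cause was not tested: Slc2a2 0.40, Acsl4 0.47, Taok1 0.85, Csnk1a1 0.52, Cyp2e1 0.51, Bhmt 0.02, Fga 1.32, Id2 0.27, Rps2 0.56, Pck1 0.27, Tkt 0.17, mt-Co3 0.36, mt-Co2 0.15, mt-Co1 0.74, Trf 0.82, Iigp1 0.63, Cxcl12 0.48, Apob 0.28 and Ahsg 1.30.

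The shares of starts with an interval, for higher, lower and uncalled genes, were 74, 79.6 and 66.4% (YAP1on) and 79.4, 90.7 and 74.2% (liver) within 100 bases. They were 87.8, 93.1 and 80.1% and 86, 94.4 and 80.1% within 2000 bases. With 50 bases of overlap they were 19.7, 21.7 and 18.2% and 76.8, 90.5 and 73.6%, since most YAP1on intervals are shorter than that. Read depth of the RNA libraries is known only relative to each other.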
